A study of Mus musculus with 11 samples.

Results

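The genes described here encode the proteins that bring pyruvate into the mitochondrion, convert it to acetyl-CoA or oxaloacetate, run the tricarboxylic acid (TCA) cycle and exchange its intermediates with amino acids. The list of 34 genes was set by name, with earlier results of these data known. Each gene was represented by its brightest probe set with a single gene symbol, by mean log2 signal over all 11 arrays. Of these genes, 33 were found and 1, Mpc2, was not analysed here. All 33 passed the filter that kept the upper 60% of probe sets by mean signal, which left 12709 genes in all, and 28 of the 33 lay in the upper 25% of those genes by signal. The labels call the tissue epididymal fat, a visceral white fat depot, taken from male C57BL/6 mice on chow at 3 months of age.

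Wild-type mice (B1+/+) gave 4 arrays. Mice lacking the kinin B1 receptor (B1-/-), the product of Bdkrb1, gave another 4. A group of 3 arrays, called fat rescue here, came from knockout mice in which the labels place a selective return of the receptor in fat (aP2B1-B1-/-). The name aP2 is the older one of Fabp4, a lipid carrier of fat cells; transgenes run from its promoter are active in adipocytes and also in macrophages. Each sample is labelled a biological replicate. How the animals were bred or caged is not given in the labels, so every p-value measures only the spread between these samples.

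The TCA cycle oxidises acetyl-CoA to carbon dioxide and feeds electrons to the respiratory chain. In white fat it also has a synthetic side: citrate leaves the mitochondrion as the source of acetyl-CoA for fatty acid synthesis, and oxaloacetate made by pyruvate carboxylase serves both citrate export and the making of glycerol phosphate. Entry of pyruvate is held back by the pyruvate dehydrogenase kinases, of which Pdk4 is the form best known for its rise on fasting.

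The median signal of an array was lowest in wild type (41.2 to 45) and higher in knockout (46.4 to 48.7) and fat rescue (45.5 to 46.4), although each array was scaled to the same trimmed mean. On the main axis of a principal component analysis, 2 arrays lay far from the rest: wild-type array 1 (-45.4) and fat rescue array 1 (-34.1). For the targeted gene Bdkrb1 the dim probe set gave signals of 3.7 to 32.2 (wild type), 4.8 to 29.7 (knockout) and 57.8 to 73.4 (fat rescue). Its position in the gene is not given, so it is no check of the knockout label. Adipocyte markers were bright: Fabp4 read at least 18598 and Adipoq at least 15589 in every array. Of 6 epididymis markers 5 were not among the measured genes, and the remaining 1, Rnase10, read 40.6 at most. Because whole tissue was used, fewer cells of a type and less RNA per cell cannot be told apart.

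None of the 33 genes differed between genotypes at an adjusted p of 0.05, but most of their means were lower in both lines than in wild type. With limma, 0 of 33 passed in knockout against wild type, where 5 of all 12709 genes did (0.0393%), 0 in fat rescue against wild type, where 2 did (0.0157%), and 0 in fat rescue against knockout, where 0 did (0%). The F test over the 3 genotypes also passed 0 of 33 (0.0393% of all genes), and at an unadjusted p under 0.05 it held 3 of 33 (6.41%). The smallest adjusted p of a member was 0.474, for Pdhb in fat rescue against wild type. At an unadjusted limma p under 0.05, 3 of 33 were lower in knockout than in wild type (3.36% of all genes) and 1 was higher (3.94%). Against wild type, 7 were lower in fat rescue (3.49%) and 1 higher (4.6%), and in fat rescue against knockout 0 were lower (1.72%) and 0 higher (2.09%).

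In knockout against wild type 28 of 33 genes had a lower mean, where 46.3% of all genes did, and their median log2 difference was -0.14 against 0.02 for all genes. For fat rescue, 31 of 33 were lower than in wild type (44.3% of all genes), with a median of -0.19 against 0.03. These comparisons share the wild-type arrays, so their values are given side by side and are not independent of each other. Between fat rescue and knockout the values were smaller: 24 of 33 were lower in fat rescue (47.4% of all genes), with a median of -0.05 against 0.01, but 14 of 33 and 0.03 without fat rescue array 3. The fat rescue mean lay between those of knockout and wild type for 7 of the 33 genes and below both for 24. Bright genes as a whole leaned the same way in knockout against wild type, with 63.5% of the 3178 genes in the upper 25% lower (median -0.04), beside 25 of the 28 members among them; in fat rescue against wild type the share was 55.4% (median -0.02) beside 27 of 28. The knockout median was -0.09 without wild-type array 1. With every array centred on its own median it became -0.29, which shifted all genes to -0.13 and gave 32 of 33 members lower. The median of fat rescue against wild type was -0.12 without fat rescue array 3. Without both arrays that lay far from the rest, 26 members were lower in knockout and 31 in fat rescue than in wild type, with medians of -0.09 and -0.19.

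**Figure D1:**
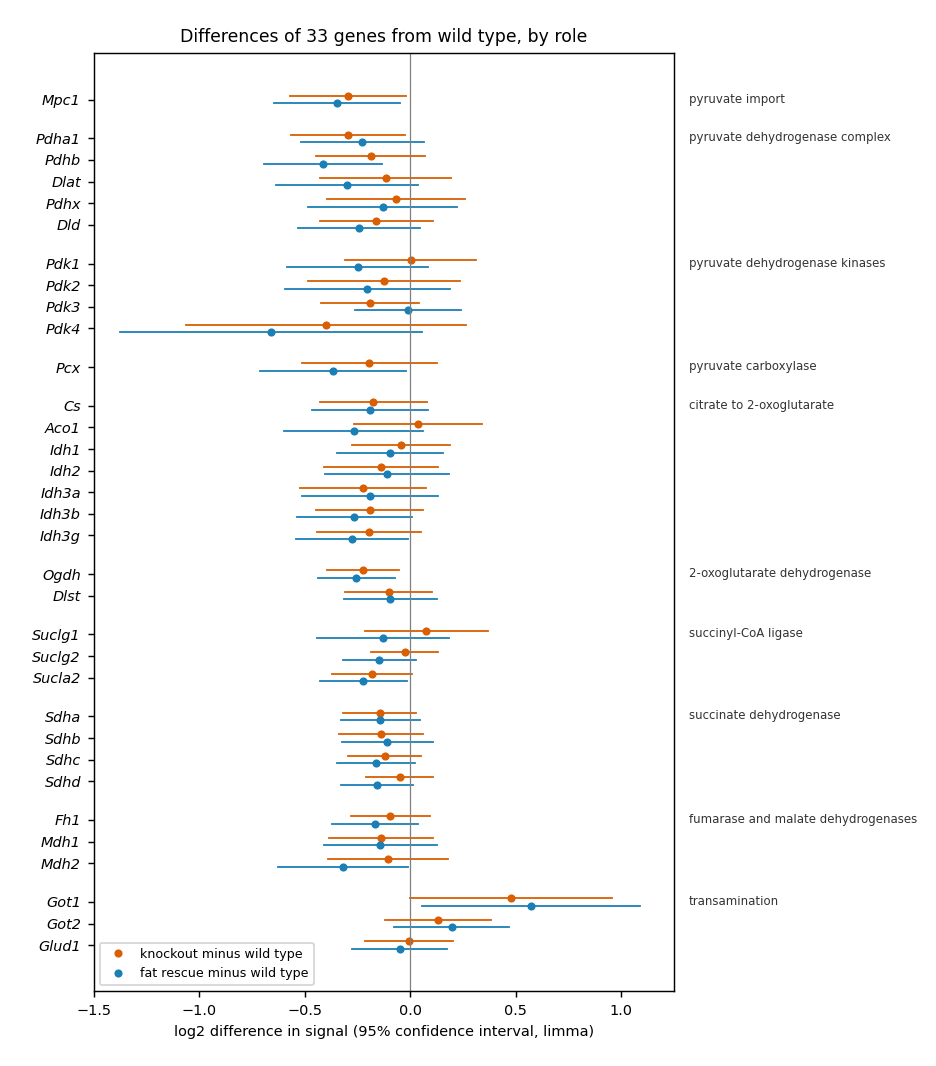
Log2 difference in signal from wild type (x axis) of the 33 genes (y axis, grouped by role), for knockout (orange) and fat rescue (blue); points are estimates and lines are 95% confidence intervals from limma, without adjustment for the number of genes. Most points lie left of 0, and Got1 and Got2 lie right of it in both colours.

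The arrays of a genotype were uneven. Relative to the wild-type mean of each gene, the median of the 33 genes was 0.14, -0.05, 0.00 and -0.10 in wild-type arrays 1 to 4. It was -0.22, -0.06, -0.04 and -0.22 in the knockout arrays and -0.09, -0.12 and -0.32 in the fat rescue arrays. Wild-type array 1 was the highest of all 11 arrays for 18 of the 33 genes, and fat rescue array 3 was the lowest for 16. The knockout arrays 2 and 3 overlapped the wild-type arrays in this median, whereas knockout arrays 1 and 4 and fat rescue arrays 2 and 3 lay below every wild-type array. Single genes rested on these arrays too. Without wild-type array 1, 22 of the 33 differences of knockout from wild type moved by over 1.5 times or turned sign, and without fat rescue array 3, 20 of the 33 differences of fat rescue from wild type did. Taking the mean of all probe sets of a gene did so for 13 and 8 of 33, of which 7 and 1 turned sign. Within a genotype the genes had a median SD of 0.18 on the log2 scale against 0.22 for all genes.

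**Figure D2:**
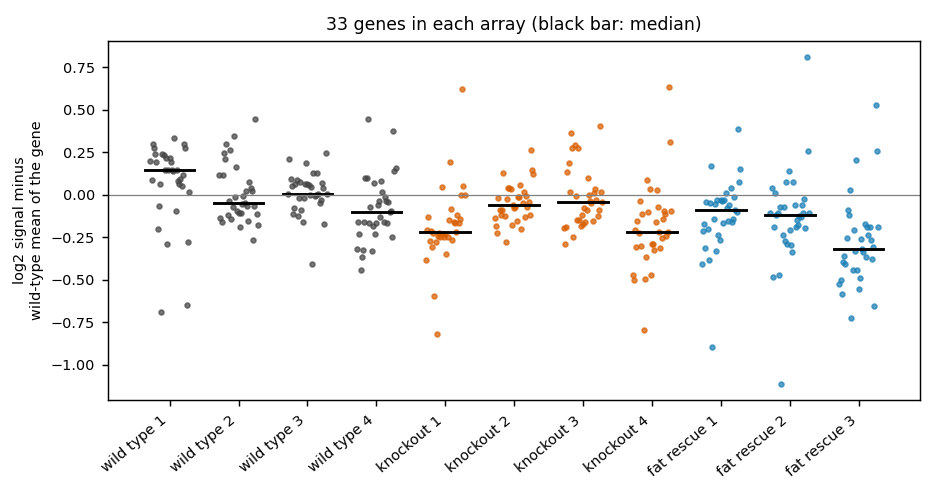
Log2 signal of each of the 33 genes minus that gene's wild-type mean (y axis) in each of the 11 arrays (x axis); black bars are medians over the genes. Wild-type array 1 has the highest median, 0.14, and fat rescue array 3 the lowest, -0.32.

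Mpc1, 1 of the pair of proteins that form the mitochondrial pyruvate carrier, was among the members with the lowest unadjusted p. It read 5611, 5297, 4898 and 3926 (wild type), 3751, 4448, 4274 and 3529.5 (knockout), and 3683, 4545 and 3397 (fat rescue). Wild-type arrays 1 to 3 lay above all others, while wild-type array 4 lay within the range of both lines. The log2 difference was -0.30 ± 0.13 (SE) in knockout against wild type (limma adjusted p = 0.683) and -0.35 ± 0.14 in fat rescue against wild type (adjusted p = 0.577).

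The pyruvate dehydrogenase complex, which turns pyruvate into acetyl-CoA, had all 5 members lower in both lines than in wild type, with medians of -0.16 in knockout and -0.24 in fat rescue. Pdha1, the alpha subunit of the E1 enzyme that is phosphorylated by the kinases, read 4576, 3931, 4998 and 3857 (wild type), 3736, 3796, 3534 and 3044 (knockout), and 3722, 4427 and 3044 (fat rescue). Every knockout array lay below every wild-type array, while fat rescue array 2 lay among the wild-type values. Groups that did not overlap in the lower direction were found in 2 of 33 members in this comparison, where 1.86% of all genes did so, and in the higher direction in 0 (1.98%). The log2 difference of Pdha1 was -0.30 ± 0.12 in knockout against wild type (adjusted p = 0.683), and its second probe set read -0.37.

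Pdhb, the beta subunit of E1, read 4568, 3332, 3955 and 3172 (wild type), 3398, 3185, 3262 and 3213 (knockout), and 3304, 2654 and 2478 (fat rescue). Fat rescue arrays 2 and 3 lay below all 9 others, and fat rescue array 1 lay within the wild-type range. The difference of fat rescue from wild type was -0.41 ± 0.13 (adjusted p = 0.474), while a second probe set read -0.08 and the mean of both -0.24. The remaining subunits are Dlat, the E2 acetyltransferase; Pdhx, which binds E3 to the core; and Dld, the E3 dehydrogenase shared with the 2-oxoglutarate complex. Their differences from wild type lay between -0.16 and -0.07 in knockout and between -0.30 and -0.13 in fat rescue, and all groups overlapped.

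The kinases that switch the complex off were lower in 3 of 4 in knockout and 4 of 4 in fat rescue than in wild type, and none passed the test. Pdk4 read 428, 826, 679 and 939 (wild type), 391, 567, 845 and 398 (knockout), and 371, 319 and 702 (fat rescue). Its arrays spread over more than a doubling within each genotype, and all groups overlapped. The difference of fat rescue from wild type was -0.66 ± 0.33 (adjusted p = 0.636), -0.43 without fat rescue array 2 and -1.0 without fat rescue array 3.

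Pdk1, a form known for its induction by hypoxia, read 346, 489, 416 and 356 (wild type), 339.7, 373, 512 and 388 (knockout), and 305, 369 and 333 (fat rescue). Its lowest array was fat rescue array 1 and its highest knockout array 3, and the groups overlapped. Fat rescue differed from knockout by -0.25 ± 0.15 (adjusted p = 0.998), by -0.13 without knockout array 3 and by -0.03 with the mean of its probe sets. Pdk3 read 219, 204, 192 and 224 (wild type), 173, 192, 176 and 194 (knockout), and 235, 199 and 192 (fat rescue). Its 95% interval in knockout against wild type ran from -0.42 to 0.04. Pdk2, a widely expressed form, ranged from 613 to 1118 over the 11 arrays, with both of these extremes in knockout.

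Pyruvate carboxylase, encoded by Pcx, replenishes oxaloacetate. Its signals were 7173, 5511, 6408 and 5417 (wild type), 5142, 5969.6, 6066 and 4313 (knockout), and 5519, 5163 and 3688 (fat rescue). Fat rescue array 3 was the lowest of all and wild-type array 1 the highest. The difference of fat rescue from wild type was -0.37 ± 0.16 (adjusted p = 0.595) and -0.19 without fat rescue array 3. The array also carries 4 control probe sets along the Pcx transcript, which read -0.42 at the 3' end, -0.32 and -0.21 in the middle and -0.25 at the 5' end in this comparison. As a sign of RNA quality, 3' over 5' signal of the Pcx controls ran from 11.8 to 13.4 (wild type), 10.6 to 13.9 (knockout) and 10.1 to 12.7 (fat rescue), and these ranges overlapped. For beta-actin (Actb) it ran from 1.65 to 1.83, 1.53 to 1.69 and 1.47 to 1.56 in the same order of groups. The Actb ratio was highest in wild type, as most members were. Its wild-type and knockout ranges overlapped, but its fat rescue range lay wholly below that of wild type. For Gapdh the ratio ran from 0.918 to 1.029, 0.865 to 1.0006 and 0.918 to 0.9496, and all of these ranges overlapped. The part of RNA quality in the result was not tested.

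From citrate synthase (Cs) to 2-oxoglutarate the list held 7 genes, of which 6 were lower in knockout and 7 in fat rescue than in wild type. Cs, which joins acetyl-CoA to oxaloacetate, differed by -0.18 ± 0.12 and -0.19 ± 0.13. Without wild-type array 1 the Cs differences were -0.10 and -0.11, and without fat rescue array 3 that of fat rescue was -0.06. The subunits of the mitochondrial NAD-dependent isocitrate dehydrogenase, Idh3a, Idh3b and Idh3g, read close together, with differences of -0.23, -0.19 and -0.20 for knockout, and -0.19, -0.26 and -0.27 for fat rescue, from wild type. Idh3g read 3939.5, 3028, 3588 and 3314 (wild type), 2715, 3286, 3267 and 2829 (knockout), and 3362, 2806 and 2461 (fat rescue). Its groups overlapped, with fat rescue arrays 2 and 3 below every wild-type array (adjusted p = 0.60). Without fat rescue array 3 that difference was -0.17, and those of Idh3a and Idh3b were -0.06 and -0.12. With the mean of its probe sets Idh3a read -0.05 in knockout and -0.11 in fat rescue. In order of falling signal, its other probe sets above the filter read -0.39, -0.60 and 1.01 in knockout. In fat rescue they read -0.25, -0.43 and 0.42. The last was dim, with a mean log2 signal of 5.17.

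The NADP-dependent isocitrate dehydrogenases have a cytosolic and a mitochondrial form. Idh1, the cytosolic form, read 5879, 5022, 4990.0 and 4456 (wild type), 5226, 5177, 4567 and 4715 (knockout), and 4955, 5335 and 4030.0 (fat rescue). Its interval in knockout against wild type was -0.27 to 0.19, and its sign turned to 0.04 with quantile normalization. Idh2, the mitochondrial form, read 853, 1166, 1087 and 1092 (wild type), 888, 923, 919 and 1066 (knockout), and 884, 852 and 1199 (fat rescue). Wild-type array 1, which was highest for most members, was the lowest wild-type array here. The Idh2 differences from wild type were -0.14 in knockout and -0.11 in fat rescue, and with the mean of its probe sets they became 0.22 and -0.48. The second Idh2 probe set was far dimmer than the brightest, with a mean log2 signal of 4.90 against 9.95. Aco1, the cytosolic aconitase that doubles as an iron sensor, read 3902, 4486, 3163 and 2813 (wild type), 2979.6, 3629.8, 4265 and 3747 (knockout), and 2813, 2931 and 3063 (fat rescue). Fat rescue lay at the low end of both other groups, by -0.31 ± 0.15 against knockout (adjusted p = 0.998), but with the mean of its probe sets that value was -0.10. The brightest Aco1 probe set is of the x type, which can bind other transcripts.

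Ogdh, the E1 subunit of the 2-oxoglutarate dehydrogenase complex, was the only member whose arrays in both lines lay wholly below wild type. It read 1864, 1569, 1687 and 1646 (wild type), 1422, 1514, 1509.5 and 1347 (knockout), and 1504, 1337 and 1408 (fat rescue). The lowest wild-type array, 1569, was above the highest of the other 7, 1514. Of all genes, 1.86% had every knockout array below every wild-type array, and 3.5% had every fat rescue array below. The share of all genes with both was not counted, and the 2 comparisons share the wild-type arrays. The log2 difference was -0.22 ± 0.08 in knockout (adjusted p = 0.636) and -0.26 ± 0.08 in fat rescue (adjusted p = 0.511). A second, far dimmer probe set (mean log2 signal 5.30, against 10.57 for the brightest) read 0.21 and 0.42. The mean of both turned the fat rescue value to 0.081 and brought the knockout value to -0.01. Dlst, the E2 subunit of this complex, differed by -0.10 and -0.09, and its groups overlapped. The mean of its probe sets turned the Dlst value in knockout to 0.03, and leaving out fat rescue array 3 turned that in fat rescue to 0.02.

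Succinyl-CoA ligase pairs a shared alpha subunit, Suclg1, with a beta subunit that makes ATP (Sucla2) or GTP (Suclg2). Sucla2 read 2805, 2566, 2521 and 2266 (wild type), 2109, 2203, 2469 and 2174 (knockout), and 2271, 2287 and 1968 (fat rescue). Wild-type arrays 1 to 3 lay above all other arrays, and wild-type array 4 lay among them. The difference was -0.18 ± 0.09 in knockout (adjusted p = 0.694) and -0.22 ± 0.09 in fat rescue (adjusted p = 0.593). Suclg2 read 1516, 1565, 1765 and 1633 (wild type), 1524, 1681, 1614 and 1536 (knockout), and 1531, 1420.0 and 1437 (fat rescue). The knockout arrays lay inside the wild-type range, with an interval of -0.19 to 0.13. Suclg1 read 0.08 in knockout, -0.07 when arrays were centred on their median, and -0.13 in fat rescue.

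The 4 subunits of succinate dehydrogenase, which is also respiratory complex II, were all lower in both lines, between -0.14 and -0.05 in knockout and between -0.16 and -0.11 in fat rescue. Sdhd, 1 of the membrane anchors, read 1579, 1561, 1471 and 1478 (wild type), 1398, 1515, 1554 and 1422 (knockout), and 1377, 1461 and 1266 (fat rescue). Every fat rescue array lay below every wild-type array, by a narrow gap, while the knockout arrays overlapped wild type. With the mean of its probe sets the Sdhd value in knockout turned from -0.05 to 0.02. Only Ogdh and Sdhd, 2 of 33 members, had groups that did not overlap in the lower direction, in fat rescue against wild type, where 3.5% of all genes did, and 0 did in the higher direction (5.74%). Against knockout 0 did in either direction (2.09% lower and 2.84% higher). The Sdhd difference was -0.16 ± 0.08 (adjusted p = 0.638) and -0.10 without fat rescue array 3. Sdha, the flavoprotein subunit, read 4837, 4359, 4570.0 and 4538 (wild type), 4087, 4412, 4424 and 3679.5 (knockout), and 4394, 4046 and 4012 (fat rescue). Its groups overlapped, since knockout arrays 2 and 3 and fat rescue array 1 lay above wild-type array 2. With the mean of its probe sets the Sdha value in fat rescue was -0.03, against -0.14. Its other probe sets above the filter read -0.24 (mean log2 signal 11.5) and 0.29 (mean log2 signal 6.71) there.

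Fumarase, encoded by Fh1, differed from wild type by -0.09 in knockout and -0.17 in fat rescue, with overlapping groups, and the latter was -0.06 without fat rescue array 3. The mitochondrial malate dehydrogenase gene Mdh2 read 7074, 5579, 6000.2 and 4916 (wild type), 5835, 5378, 5499 and 5013 (knockout), and 5439, 5108 and 3708 (fat rescue). Its difference in fat rescue was -0.32 ± 0.14 (adjusted p = 0.599) and -0.15 without fat rescue array 3, its lowest array. A second Mdh2 probe set was about as bright (mean log2 signal 12.34 against 12.39). It read -0.11 in fat rescue and -0.03 in knockout, where the brightest read -0.11. Mdh1, the cytosolic form of the malate-aspartate shuttle, read 6374, 4305, 5434 and 4843 (wild type), 4688, 5037, 4761 and 4388 (knockout), and 4866, 5104 and 4187 (fat rescue). Wild-type arrays alone spanned nearly its whole range, and the difference was -0.14 in either line. Without wild-type array 1 it was -0.04 in either line. With the mean of its probe sets the Mdh1 value was 0.09 in knockout and -0.32 in fat rescue. Of its other probe sets above the filter, 1 with mean log2 signal 11.8 read 0.12 in knockout and -0.29 in fat rescue. Another, at 11.5, read -0.03 and -0.61, and a dim one, at 6.27, read 0.42 and -0.25.

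Both aspartate aminotransferases had higher means in the lines than in wild type. Got1, the cytosolic aspartate aminotransferase, read 65.6, 140.0, 91.4 and 133 (wild type), 158, 124, 136 and 159 (knockout), and 134, 180.1 and 148 (fat rescue). Wild-type arrays 1 and 3 were the lowest, and wild-type arrays 2 and 4 lay within the range of the lines. The difference was 0.48 ± 0.22 in knockout (adjusted p = 0.683) and 0.57 ± 0.24 in fat rescue (adjusted p = 0.586), and 0.26 and 0.36 without wild-type array 1. Its signal lay at percentile 33.1 of the measured genes, the lowest of the 33. Got2, the mitochondrial form, read 678, 760.0, 975 and 905 (wild type), 851, 907, 829.8 and 1019 (knockout), and 864, 983 and 979 (fat rescue). Its values were 0.13 and 0.20, its second probe set read 0.25 and 0.43, and centring arrays on their median turned the knockout value to -0.02. Without wild-type array 1 the Got2 values were 0.04 and 0.10. Glud1, the glutamate dehydrogenase that links glutamate to 2-oxoglutarate, had differences near 0, with intervals of -0.21 to 0.20 in knockout and -0.27 to 0.18 in fat rescue.

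**Figure D3:**
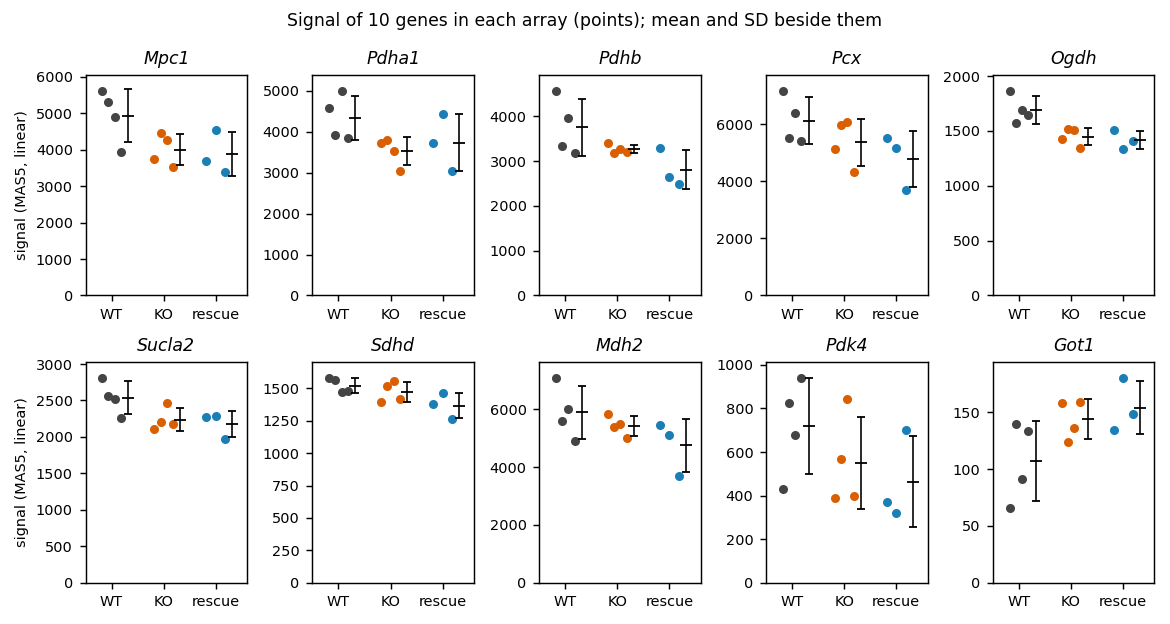
Deposited signal (y axis, linear, from 0) of 10 of the genes in each array, by genotype (x axis: WT, wild type; KO, knockout; rescue, fat rescue); each point is an array, and bars beside them are mean and SD. Ogdh is the panel in which all arrays of both lines, 1514 at most, lie below all wild-type arrays, 1569 at least, and in the Got1 panel the wild-type points reach lowest, to 65.6.

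Other probe sets of these genes measured the same arrays. A second probe set above the filter existed for 21 of the 33 genes. For some genes it was far dimmer than the brightest. Its mean log2 signal was 7.24 against 11.7 for Pdhb, 6.66 against 10.6 for Dlst and 7.41 against 10.5 for Sdhd. It had the sign of the brightest in 13 of 21 genes in knockout against wild type, 14 of 21 in fat rescue against knockout and 19 of 21 in fat rescue against wild type. Second probe sets that differed in sign in knockout against wild type were not all dim. For Mdh1 it read 0.12 at a mean log2 signal of 11.8, against -0.14 at 12.3. For Aco1 it read -0.18 at 10.6, against 0.04 at 11.7. For Glud1 it read 0.09 at 11.2, against -0.0035 at 11.3.

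Promoter sequence was examined for motifs of factors known to drive mitochondrial genes. The window ran from 250 bases before to 50 after the RefSeq start (GRCm38.p6) and was searched on both strands in the 32 listed genes that had an entry. The GABP motif CCGGAAG was found in 7 of 32 (21.9%), in 17.4% of the measured genes with an entry and in 9.12% of all promoters. The NRF1 motif, GCGCA and GCGC with any base between them, was found in 4 of 32 (12.5%), against 10.2% of measured genes and 4.78% of all. The estrogen-related receptor motif AAGGTCA was in 2 of 32 (6.25%), against 3.21% and 4.66%, and the YY1 motif AAGATGG in 1 of 32 (3.13%), against 7.10% and 6.48%. A match describes letters only. The 250 bases before the start, 5' to 3' on the gene's strand, are shown for Mpc1 (chr17:8283537-8283786, plus strand) and Sdhd (chr9:50603850-50604099, minus strand) as members with lower means, and for Got1 (chr19:43524606-43524855, minus strand) as a member with higher means. Capitals mark a match: GABP in Mpc1, NRF1 and then GABP in Sdhd, which do not overlap, and the estrogen-related receptor motif in Got1. The match of that motif in Sdhd lies after the start, outside the bases shown.
Mpc1: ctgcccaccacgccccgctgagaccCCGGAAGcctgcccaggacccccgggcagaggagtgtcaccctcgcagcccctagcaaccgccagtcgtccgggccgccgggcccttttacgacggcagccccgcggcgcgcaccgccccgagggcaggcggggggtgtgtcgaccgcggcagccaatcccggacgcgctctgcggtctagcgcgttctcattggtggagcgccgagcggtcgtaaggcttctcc
Sdhd: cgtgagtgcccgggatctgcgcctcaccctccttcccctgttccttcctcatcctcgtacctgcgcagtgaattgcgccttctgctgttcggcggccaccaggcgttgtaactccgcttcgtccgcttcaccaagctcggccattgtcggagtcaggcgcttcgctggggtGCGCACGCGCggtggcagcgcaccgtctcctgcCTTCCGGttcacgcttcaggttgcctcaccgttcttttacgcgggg
Got1: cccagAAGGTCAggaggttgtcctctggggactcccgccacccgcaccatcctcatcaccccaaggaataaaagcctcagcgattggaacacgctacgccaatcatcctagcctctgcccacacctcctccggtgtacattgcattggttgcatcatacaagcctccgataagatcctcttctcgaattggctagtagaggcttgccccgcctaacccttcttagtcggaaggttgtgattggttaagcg

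Neighbouring reactions, from a list of 30 linked genes of which 27 were measured, showed no gene past an adjusted p of 0.05 in any comparison with limma. In knockout against wild type 17 were lower and 10 higher (median -0.18), where 46.3% of all genes were lower. Without wild-type array 1 the counts were 14 and 13 (median -0.08), and without wild-type array 2 they were 19 and 8 (-0.18). At an unadjusted p under 0.05, 6 were lower and 4 higher, beside 3.36% and 3.94% of all genes. Those with the smallest were Slc16a1, a monocarboxylate transporter for lactate and pyruvate (-0.32 ± 0.10, adjusted p = 0.574), Sdhaf1, an assembly factor of succinate dehydrogenase (0.25 ± 0.09), and D2hgdh, which oxidises D-2-hydroxyglutarate (-0.51 ± 0.20). Slc16a1 read 933 or more in every wild-type array and 896 or less in every knockout array. For fat rescue, 19 were lower than in wild type and 8 higher (median -0.25), where 44.3% of all genes were lower. Without fat rescue array 3 the counts were 17 and 10 (median -0.05), and without wild-type array 1 they were 20 and 7 (-0.13). At an unadjusted p under 0.05, 5 were lower and 2 higher, beside 3.49% and 4.6% of all genes. They were led by Gpt2, the mitochondrial alanine aminotransferase (-0.47 ± 0.13, adjusted p = 0.40), Sdhaf2, another assembly factor (-0.30 ± 0.09), and Pdp1, the phosphatase that switches pyruvate dehydrogenase on (0.39 ± 0.14). In fat rescue against knockout 18 were lower, or 11 without fat rescue array 3, where 47.4% of all genes were lower. An unadjusted p under 0.05 was found for 0, and the smallest belonged to Acss1, Gpt2 and Glul, at 0.38, -0.26 and -0.41.

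Of 11 measured regulators of mitochondrial genes 0 passed an adjusted limma p of 0.05 in any comparison. In knockout against wild type 5 had lower means (46.3% of all genes). In fat rescue 7 did against wild type (44.3%) and 8 against knockout (47.4%). The count of 7 was 4 without fat rescue array 3, 5 without wild-type array 1 and 8 without fat rescue array 1. Its median was -0.10, and 0.05 without fat rescue array 3. The smallest unadjusted p in knockout against wild type belonged to Pparg, the master regulator of fat cell formation, at -0.22 ± 0.10 (adjusted p = 0.683), followed by Gabpa (0.17 ± 0.09) and Hif1a (0.17 ± 0.12). For fat rescue against wild type they were Nrip1, a corepressor of oxidative genes, at -0.30 ± 0.12 (adjusted p = 0.581), Hif1a (0.27 ± 0.13) and Ppara (-0.36 ± 0.22). Nrip1 (-0.23), Nrf1 (0.31) and Esrra (-0.26) had the smallest in fat rescue against knockout.

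No marker gene of another cell type or of adipocytes passed an adjusted limma p of 0.05, so the following counts are of means. Of all genes, 46.3% had a lower mean in knockout than in wild type, and 44.3% in fat rescue than in wild type. All 8 measured of 10 adipocyte markers were lower in knockout than in wild type (median -0.24) and 7 of 8 in fat rescue (median -0.12, or 5 of 8 and -0.07 without fat rescue array 3), while their summed signal overlapped, with ranges of 75626 to 101845 (wild type), 69930 to 93927 (knockout) and 74837 to 91122 (fat rescue). All 10 macrophage markers had higher means in both lines (medians 0.21 and 0.27), but without knockout array 1 only 6 of 10 were higher in knockout (median 0.05). In fat rescue against wild type, 5 of the 10 had groups that did not overlap, all higher (5.74% of all genes). An unadjusted limma p under 0.05 was found there for 4 of the 10, all higher (4.6% of all genes). Their sums were 14384 to 20086 (wild type), 15550 to 30173 (knockout) and 20186 to 24178 (fat rescue). The 3 measured of 7 brown or beige markers were lower in both, with sums of 338 to 539 (wild type), 238 to 337 (knockout) and 173 to 226 (fat rescue), and Ucp1 did not pass the filter. Among them Cox8b differed by -0.70 in knockout and -1.33 in fat rescue, where its adjusted p was 0.0507. Of 8 endothelial markers 6 were lower in knockout (median -0.06) and 6 higher in fat rescue (median 0.13, or 0.02 without fat rescue array 3), and 5 of 6 mesothelial markers were higher in each line (medians 0.15 and 0.45). Lymphocyte markers were higher in 4 of 5 in knockout and 5 of 5 in fat rescue, but in 2 of 5 in knockout without knockout array 1 and in 3 of 5 in each line without wild-type array 1. Without that array 3 of 6 mesothelial markers were higher in knockout. Of the skeletal muscle markers 3 of 6 were measured, with sums of up to 569.6 (wild type), 648 (knockout) and 388 (fat rescue). The part of any of these in the values of the TCA cycle and pyruvate genes was not tested.

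**Figure D4:**
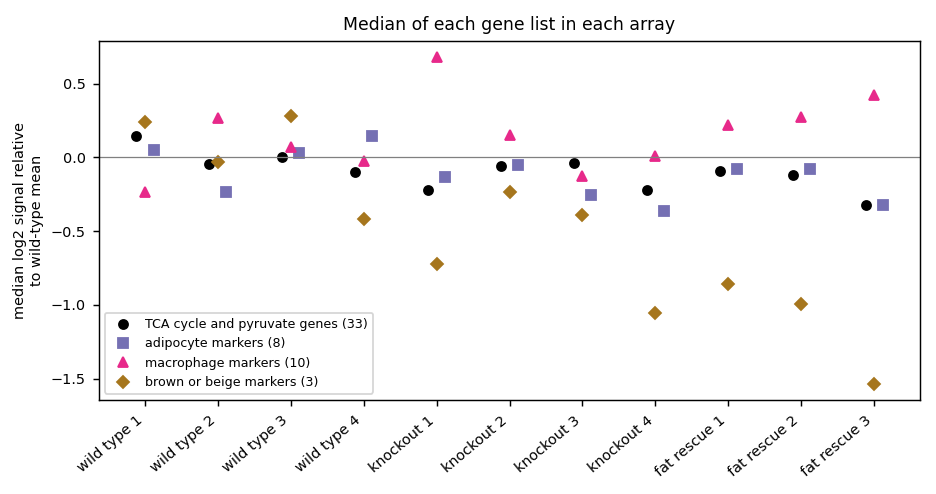
Median log2 signal relative to the wild-type mean of each gene (y axis) for the TCA cycle and pyruvate genes, adipocyte, macrophage and brown or beige markers in each array (x axis). In fat rescue array 3 the TCA cycle and pyruvate genes and the adipocyte markers both sit at -0.32, while macrophage markers are at 0.68 in knockout array 1.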

How the data were processed

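Total RNA of epididymal fat was labelled by the submitters and hybridized to 1 one-colour Affymetrix array of 45101 probe sets per sample. The deposited values are signal intensities, linear and scaled by the authors' software to a common trimmed mean; per the submitters' processing notes they come from GCOS 1.3 and MAS5. A single 0 was set to 0.1, and log2 was taken with no further normalization; array medians differed by up to 0.24 on that scale. No arrays were identical. The 64 control probe sets were left out; 34945 others had 1 gene symbol, 932 several and 9160 none.

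Probe sets in the upper 60% of mean signal entered, and the brightest of each gene gave 12709 genes. All 11 arrays were fitted with genotype as the only factor in limma 3.58.1 (R 4.3.3, statmod 1.5.0; eBayes with trend), two-sided, with Benjamini-Hochberg adjustment over all genes. Intervals are 95% and not adjusted. The number of arrays limits the precision. The fitting steps were tested on simulated data.

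The members and lists were chosen with earlier results of these data known. All members may be named; arrays are listed singly for members whose groups do not overlap, those with the smallest unadjusted p of their role, pairs of isoforms and Pdk4, and for each other list up to 3 genes with the smallest unadjusted p. Leaving out the 2 arrays that stood apart and describing the lists without each array in turn were added after seeing the data. Replicate numbers were not used as pairs, since no label ties a number to a litter or day. Of 10 same-numbered pairs 4 deviated together (correlation over 0.1). The highest correlation, 0.35, was between wild-type array 1 and fat rescue array 1, the arrays that stood apart. Pairs of different numbers reached 0.28. Alternatives are given in the closing section.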

Additional observations from a re-analysis of the deposited data

Results flagged for a closer look

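Among 66 groups of 4 arrays, 1 member had an array far from the others by Dixon's test, where chance flags about 1 in 20 groups. Cs, citrate synthase, read 5030.1 in wild-type array 1 and 4012 to 4062 in the other wild-type arrays, a gap of 0.945 of the group's range that exceeded the critical value for 4 arrays.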

How the results depend on the processing

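No member passed an adjusted p of 0.05 under any of the 23 alternatives; the smallest was 0.133, in knockout against wild type with arrays centred on their median. That setting moved the median difference of the members in knockout against wild type to -0.29, with all genes at -0.13, and gave 32 of 33 lower members there and 18 in fat rescue against knockout. Leaving out each array in turn gave medians of -0.17 to -0.09 in knockout against wild type, -0.22 to -0.12 in fat rescue against wild type and -0.10 to 0.03 in fat rescue against knockout. The counts of lower members were then 26 to 29, 27 to 31 and 14 to 28; the lowest of the last came without fat rescue array 3. With the replicate block, which takes same-numbered arrays as pairs, the medians were -0.14, -0.22 and -0.09 in that order, 28, 30 and 27 members were lower and 0 passed; 5 of 11 arrays correlated best with an array of their own number. Averaging all probe sets per gene turned Ogdh in fat rescue against wild type to 0.081, with a second probe set of mean log2 signal 5.30 against 10.57. Leaving out wild-type array 1 and fat rescue array 1 together, chosen after seeing the data, gave medians of -0.09, -0.19 and -0.10. The count of all genes past the threshold was 5, 2 and 0 in the order above; it was 10, 5 and 0 with median centring, 8, 2 and 0 with the replicate block, 14, 8 and 0 without wild-type array 1, and 2 to 14, 1 to 8 and 0 over all alternatives. The other alternatives were quantile normalization, log2(value + 50), no filter, the upper 40% of probe sets, eBayes without trend or robust, array weights and only the groups compared; over all 12 alternatives other than leaving out a single array, medians ran from -0.29 to -0.09, -0.29 to -0.12 and -0.10 to -0.0044, and counts of lower members from 25 to 32, 30 to 31 and 18 to 27. Detection calls were not used here, so signal over background was not judged for dim probe sets such as that of Got1.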
